A study of Mus musculus with 12 samples.

Results

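The comparison described here set mouse Burkitt lymphoma cells that had lost both forms of Foxo1 against the same cells with Foxo1 T24P as their sole form. It took the 3 arrays labelled wt-/mt- and the 3 labelled wt-/mt+, 6 of the 12 arrays of the series, and all 34958 of 45101 probe sets that the platform annotation pairs with 1 gene. Every array carried RNA of the line BL#19, a murine Burkitt lymphoma line edited with CRISPR/Cas9. In the labels' notation wt+ is wild-type mouse Foxo1 and mt+ is mouse Foxo1 T24P, and a minus sign marks the knockout of that form. Both genotypes compared thus share the knockout of wild-type Foxo1, and wt-/mt- adds the knockout of the T24P form. The other 6 arrays, 3 wt+/mt+ and 3 wt+/mt-, repeat the loss of T24P with the wild-type form present. The labels name a single line, and 1 field calls the samples germinal center B cells while the others name Burkitt lymphoma. From them alone, different clones, different cultures and repeats of 1 RNA are all possible sources of the 3 arrays per genotype. A p-value here therefore speaks for the variation among these arrays, part of which may be technical.

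Foxo1 is a forkhead transcription factor that binds DNA and switches on genes for cell cycle arrest, cell death, autophagy and the damping of growth factor signalling. When phosphatidylinositol 3-kinase (PI3K) is active, the kinase AKT phosphorylates Foxo1, 14-3-3 proteins bind it, and it leaves the nucleus. Threonine 24 is one of the AKT sites, and its replacement by proline removes a docking site for 14-3-3 proteins. Foxo1 with a changed threonine 24 recurs in B cell lymphomas, and in the germinal center, where B cells mutate and select their antibodies, Foxo1 maintains the dark zone in which they divide.

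Levels are log2 values as the authors deposited them, so a difference of 1 is a 2-fold difference. Each gene was read from its brightest probe set and kept where that probe set lay above the array median in at least 3 of the 6 arrays, which left 11174 genes. A gene was called where its limma p, adjusted by Benjamini and Hochberg's method across the kept genes, lay below 0.05, and "rose" and "fell" mean called higher or lower in wt-/mt-. The groups were not equally tight: over all genes the median SD was 0.11 for wt-/mt+ but 0.263 for wt-/mt-. The latter arrays also differed by chromosome. Relative to the wt-/mt+ mean, the median gene lay at -0.76 on chromosome 12 and -0.39 on chromosome 1 in wt-/mt- replicate 1, at 0.28 on chromosome 6 in replicate 2, and at 0.31 on chromosome 16 and -0.29 on chromosome 8 in replicate 3. No chromosome median of a wt-/mt+ array was farther than 0.02 from that mean. Being the mean of these same 3 arrays, it keeps them near 0, whereas the wt-/mt- values also hold any difference between the genotypes. The bioD hybridization control read 12.85 to 13.04 in wt-/mt+ and 11.82 to 12.25 in wt-/mt-, and it was also low, at 12.04 to 12.43, in wt+/mt-. B cell markers averaged 11.49 to 11.74 in wt-/mt+ and 10.85 to 11.68 in wt-/mt-, and each of the 6 matched markers lay above the array median in at least 1 array. The part of these values in the results was not tested.

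**Figure D1:**
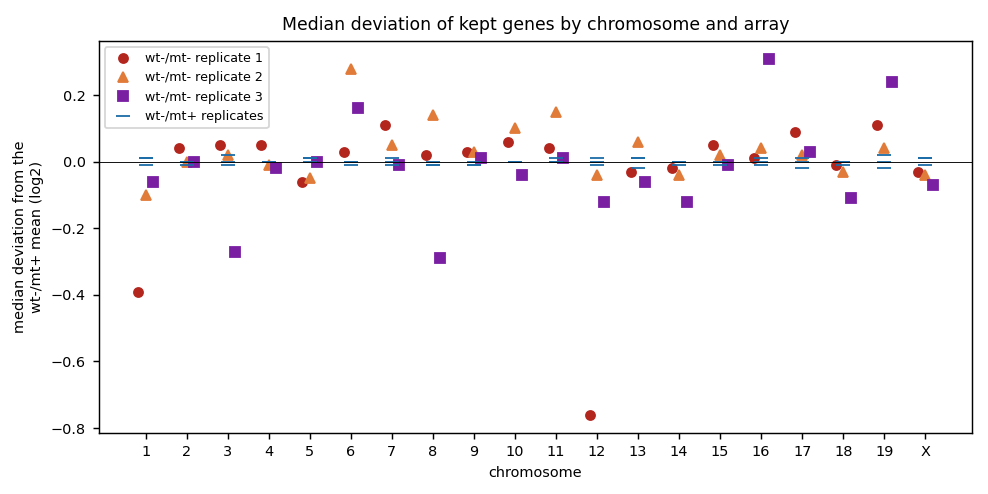
Median deviation of the kept genes of each chromosome from the mean of the 3 wt-/mt+ arrays (log2, vertical axis) for each of the 6 arrays, by chromosome (horizontal axis). The wt-/mt+ arrays, whose own mean is the reference, stay within 0.02 of 0. In wt-/mt- replicate 1 the median lies at -0.76 on chromosome 12 and at -0.39 on chromosome 1.

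Foxo1 mRNA itself was lower without the T24P form but remained well above the array median. Its level was 11.57, 11.16 and 11.64 in the wt-/mt+ arrays and 10.23, 9.39 and 10.34 in the wt-/mt- arrays. The groups did not overlap, and replicate 2 was the lowest array of each. It fell by 1.47 on the log2 scale (2.77-fold; SE 0.28, limma adjusted p = 0.0405). It was -1.6 to -1.34 over the 3 brighter probe sets, and a dimmer one read 5.67 and 5.73 on average. Foxo1 lies on chromosome 3, where the median of wt-/mt- replicate 3 was -0.27. With each array centred per chromosome the change was -1.4 and missed the threshold (limma adjusted p = 0.058). An edit that stops the protein need not remove the mRNA, so this checks the labels only in part. The related factors were not called: Foxo3 read 9.06, 9.01 and 9.13 against 8.91, 9.14 and 7.52, and Foxo4 read 6.99, 6.76 and 6.96 against 7.38, 7.42 and 6.77.

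More genes were called lower than higher after loss of T24P as the last form. Of 11174 kept genes 517 were called (4.63%), of which 331 were lower in wt-/mt- (2.96%) and 186 were higher (1.66%). At an unadjusted p under 0.05 there were 2881. The 6 arrays did not overlap for any of the 517. Falls of at least 2-fold numbered 221 and rises of that size 74, and 20 falls and 7 rises reached 8-fold. The balance of calls varied with scaling: 315 were lower and 245 higher under quantile normalization, and 370 and 148 with arrays centred on their medians. Without regard to the test, the wt-/mt- arrays lay wholly below the wt-/mt+ arrays for 1941 genes (17.4%) and wholly above for 1986 (17.8%). The median change over all kept genes was 0.01. The number called depended on the group that lost an array. It was 7, 5 and 27 without wt-/mt+ replicate 1, 2 or 3, and 976, 741 and 933 without wt-/mt- replicate 1, 2 or 3. With 1 weight per genotype, chosen after seeing the data, these were 192, 205 and 278, and 258, 171 and 317. Of the 90 called genes picked for naming, 85, 87 and 82 missed the threshold without wt-/mt+ replicate 1, 2 or 3. Their direction could not change in these fits, because the groups did not overlap for any called gene. In each list and direction described below, at most 1 call remained without wt-/mt+ replicate 1, 2 or 3. When all 12 arrays shared 1 estimate of spread, 1271 genes were lower (11.4%) and 1106 higher (9.9%), and 510 of the 517 were among them. That estimate is too small for this contrast, because wt-/mt- arrays vary more than those of the other genotypes. Simulated data gave each genotype the spread measured on its own 3 arrays, so the wider wt-/mt- spread was an input. On them the fit with shared spread called 172 unchanged genes, against 25 with the 6 arrays. Counts of this contrast with all 12 arrays, here and below, are therefore inflated and are no separate support.

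**Figure D2:**
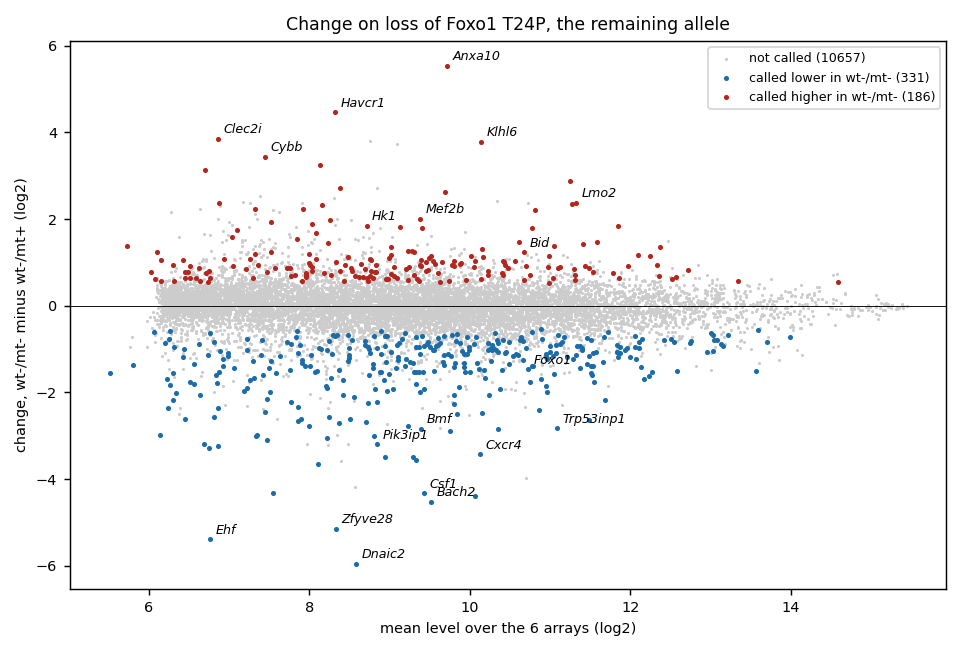
Change in log2 level, wt-/mt- minus wt-/mt+ (vertical axis), against the mean level over the 6 arrays (horizontal axis) for 11174 genes. Blue points are the 331 genes called lower, red points the 186 called higher and grey points the rest, and the extremes are Dnaic2 at -5.95 and Anxa10 at 5.54.

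FOXO target genes that passed the test were lower without T24P. Of 18 kept genes through which FOXO factors feed back on PI3K, AKT and mTOR signalling, 3 fell, their median change was -0.48 and 16 had a negative change. Of 48 kept canonical FOXO target genes 9 fell, the median was -0.54 and 36 changes were negative. Over all genes 2.96% fell, the median was 0.01 and 5506 of 11174 changes were negative. In 25 of the 48 all 3 wt-/mt- arrays lay below the wt-/mt+ arrays, where 17.4% of all genes did so, and in 3 they lay above, against 17.8%. No canonical gene was called higher by limma, and 3 were higher at an unadjusted p under 0.05. With all 12 arrays 3 were called higher and 23 lower, against 9.9% and 11.4% of all genes. In either direction 2881 of 11174 genes passed the unadjusted p. Of 13 kept target genes known from lymphocytes 4 fell, with a median of -0.88. The 3 lists share members: Pik3ip1 is counted among the falls of all 3 and Trib1 among those of the first 2. Without any 1 wt-/mt+ replicate (1, 2 or 3) no member of these 3 lists was called. Without wt-/mt- replicate 1, 2 or 3 the canonical list held 11, 14 and 15 falls. Over all genes the number of falls also grew in these fits, from 331 to 560, 496 and 549. The larger counts of the canonical list are therefore no separate support.

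Among the feedback genes, Pik3ip1, whose product restrains PI3K at the membrane, had the largest fall. Its level was 10.52, 10.54 and 10.28 with T24P and 7.24, 7.82 and 6.69 without it. The lowest wt-/mt+ array stood far above the highest wt-/mt- array, and the fall was 3.2 (9.19-fold; SE 0.28, limma adjusted p = 0.00742). Trib2, a pseudokinase and FOXO target, read 11.35, 11.42 and 11.65 against 10.31, 10.28 and 9.68. It fell by 1.38 (limma adjusted p = 0.022), but it lies on chromosome 12 and with arrays centred per chromosome the change was -1.06 (limma adjusted p = 0.0867). The related pseudokinase Trib1 fell by 0.9, from 8.38, 8.47 and 8.16 to 7.72, 7.19 and 7.41 (limma adjusted p = 0.0405). Genes of the same list that were not called included Irs2, the insulin receptor adaptor, at 10.47, 10.07 and 10.32 against 9.21, 9.41 and 8.38. Its groups did not overlap, yet the limma adjusted p was 0.0571. Sesn1, a sestrin that restrains mTOR complex 1, read 12.2, 12.01 and 11.79 against 11.01, 11.15 and 9.24, where wt-/mt- replicate 3 was the low array (limma adjusted p = 0.122). Rictor, the defining subunit of mTOR complex 2, differed by -0.63 (SE 0.17, limma adjusted p = 0.0828).

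The canonical targets that fell covered cell death, stress and autophagy. Trp53inp1, a stress protein that acts in autophagy and cell death, read 12.67, 12.49 and 12.34 with T24P and 9.92, 10.12 and 8.98 without it. It fell by 2.83 (7.1-fold; SE 0.3, limma adjusted p = 0.00917), and its 2 probe sets gave -2.83 and -0.48. Its relative Trp53inp2, an autophagy cofactor, fell by 1.11 from 10.39, 10.61 and 10.46 to 9.16, 9.61 and 9.34 (limma adjusted p = 0.019). Ulk1, the kinase that starts autophagy, fell by 1.06, and Bnip3, a receptor for removal of mitochondria, fell by 0.84 (limma adjusted p = 0.0225 and 0.0284). The 2 Ulk1 probe sets gave -1.06 and -0.35, and the 3 of Gadd45b ranged from -1.1 to -0.43. Gadd45b, a stress-response protein, fell by 1.06 (limma adjusted p = 0.0391), and Ccng2, an unconventional cyclin linked to growth arrest, fell by 0.61 from 12.04, 12.03 and 12.03 to 11.49, 11.25 and 11.52 (limma adjusted p = 0.0431). The Ccng2 call was lost under quantile normalization. Other known targets stayed short of the threshold. Tsc22d3, the glucocorticoid-induced leucine zipper gene, read 10.34, 10.34 and 10.58 against 9.03, 10.03 and 8.69 (limma adjusted p = 0.0963). Btg1, an antiproliferative factor, read 13.72, 13.76 and 13.37 against 13.19, 13.01 and 12. Cpt1a, the mitochondrial fatty acid importer, read 11.14, 11.26 and 11.08 against 8.91, 8.84 and 10.41, with replicate 3 the highest of the wt-/mt- arrays (limma adjusted p = 0.064).

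**Figure D3:**
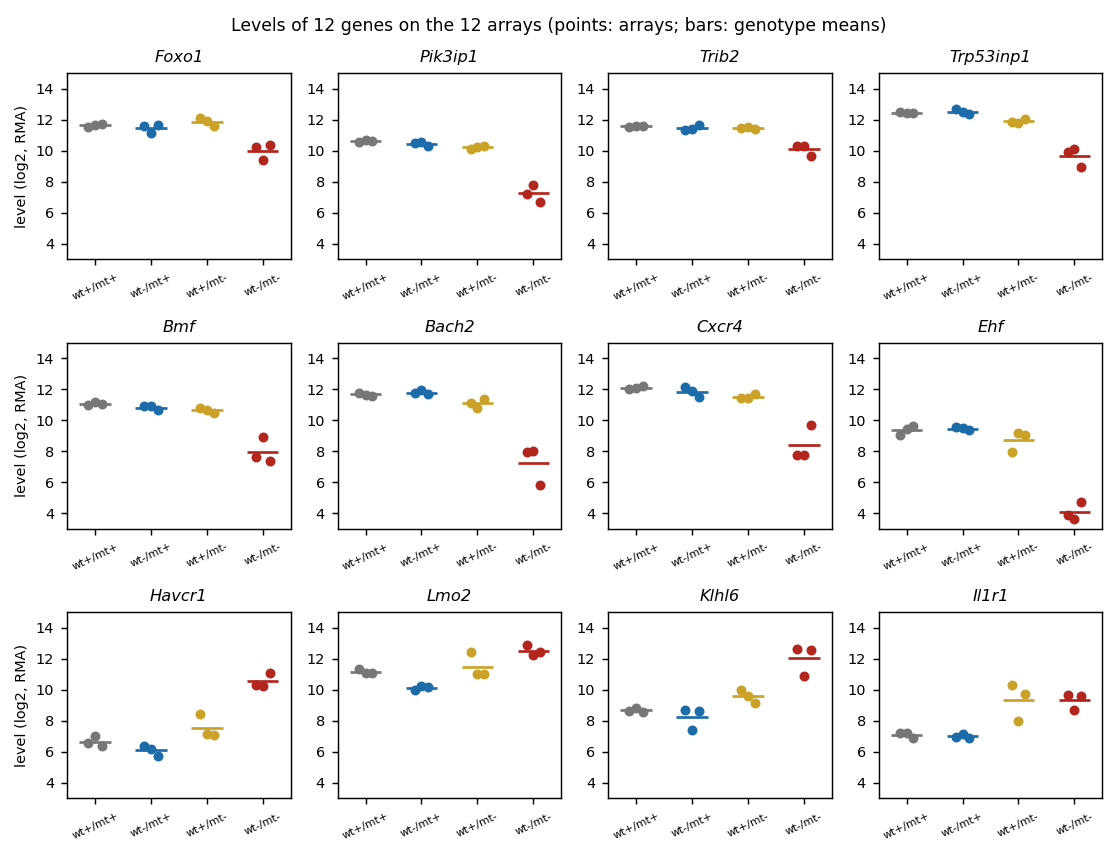
Log2 levels (vertical axis, RMA) of 12 genes on the 12 arrays by genotype (horizontal axis), with 1 point per array and a bar at each genotype mean. For Pik3ip1, Trp53inp1, Bmf, Bach2, Cxcr4 and Ehf the 3 wt-/mt- points lie below the other 9, and Il1r1 is high in both mt- genotypes.

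The core of the forkhead recognition element was searched in the RefSeq promoter table of GRCm38.p6 (250 bases before to 50 after each start site), because it is the element that FOXO factors bind. The letters searched were GTAAACA and its reverse complement TGTTTAC, which together cover both strands. A match was present in 1199 of 32851 promoters (3.65%), in 315 of 11620 promoters of tested genes (2.71%), in 10 of 384 promoters of genes that fell (2.6%) and in 5 of 205 of genes that rose (2.44%). It was present in 8 of 57 promoters of kept canonical targets (14.0%), and in none of the 9 promoters listed for 7 of the canonical targets that fell. The first 4 sequences below are from genes that fell and the last 4 from canonical targets that were not called. They are printed in the direction of transcription with the match in capitals.
Otud1, chr2:19657693-19657719, plus strand: gcggcctgagGTAAACAagcgcggccc
Marchf1, chr8:65618449-65618475, plus strand: aagtcagcgcTGTTTACacccgcagcc
Ube2h, chr6:30243981-30244007, minus strand: agataaagccGTAAACAtaaagacaag
Pim1, chr17:29493005-29493031, plus strand: cccaaagtttGTAAACAggaatcacgt
Bcl2l11, chr2:128125801-128125827, plus strand: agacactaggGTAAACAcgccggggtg
Bbc3, chr7:16310084-16310110, plus strand: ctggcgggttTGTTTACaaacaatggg
Sesn1, chr10:41810586-41810612, plus strand: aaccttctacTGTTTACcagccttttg
Btg1, chr10:96616787-96616813, plus strand: ggggtttattTGTTTACaagcagatta
The match is a description of these letters and not a measured site. Otud1, a deubiquitinase gene, fell by 2.68 from 10.34, 10.29 and 9.52 to 7.94, 7.97 and 6.2 (limma adjusted p = 0.0405), a call that was lost when no filter on low values was applied. Ube2h, a ubiquitin-conjugating enzyme gene, fell by 1.39 from 12.4, 12.22 and 11.99 to 10.82, 10.83 and 10.8 (SE 0.14, limma adjusted p = 0.00761). Its 3 wt-/mt- arrays were nearly equal. Pim1, a serine/threonine kinase that promotes survival, fell by 1.29 from 10.32, 10.35 and 10.26 to 9.16, 9.05 and 8.86 (limma adjusted p = 0.00742).

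Lymphocyte targets and B cell transcription factors gave several of the largest changes. Bach2, a repressor that holds activated B cells back from becoming plasma cells, read 11.74, 11.93 and 11.67 with T24P and 7.92, 8.03 and 5.83 without it, replicate 3 being the lowest. It fell by 4.52 (22.9-fold; SE 0.57, limma adjusted p = 0.0162), while its 3 probe sets ranged from -4.52 to -1.11. Foxp1, a forkhead factor needed for B cell development, fell by 1.19 from 11.6, 11.73 and 11.33 to 10.19, 10.55 and 10.35 (limma adjusted p = 0.0173). Cxcr4, the chemokine receptor that holds B cells in the dark zone, read 12.17, 11.88 and 11.47 against 7.78, 7.75 and 9.69. The groups were separate, with replicate 3 the least reduced, and Cxcr4 fell by 3.43 (10.8-fold; SE 0.54, limma adjusted p = 0.0262). Cxcr4 lies on chromosome 1. Klf2 and S1pr1, which direct lymphocyte exit from tissue, were not called: Klf2 read 11.31, 10.54 and 10.45 against 10.05, 10.49 and 10.16, and S1pr1 read 7.84, 7.59 and 7.5 against 7.23, 6.34 and 6.73 (limma adjusted p = 0.249 and 0.0868).

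Of 49 kept B lineage transcription factors 6 fell and 3 rose, where 2.96% of all genes fell and 1.66% rose. Ehf, an ETS factor best known from epithelia, was above the array median in all 3 wt-/mt+ arrays and below it in all 3 wt-/mt- arrays. It read 9.56, 9.48 and 9.34 against 3.91, 3.61 and 4.71, the second largest fall (5.38, 41.7-fold; SE 0.28, limma adjusted p = 0.00416). Sox5, an HMG-box factor, fell by 3.1 from 9.26, 9.28 and 8.51 to 5.33, 7.3 and 5.14 (limma adjusted p = 0.0392, lost with no filter on low values). Its 5 brighter probe sets ranged from -3.1 to -0.53. Nfatc1, a calcium-regulated factor of antigen receptor signalling, fell by 1.39 (limma adjusted p = 0.0413). The rises were Lmo2, Mef2b and Etv6, and the remaining fall was Fli1. Lmo2, a LIM adaptor abundant in germinal center B cells, read 9.97, 10.27 and 10.15 against 12.87, 12.22 and 12.47 and rose by 2.38 (SE 0.19, limma adjusted p = 0.00629). Mef2b, a germinal center factor that activates Bcl6, read 8.32, 8.71 and 8.08 against 11.23, 9.98 and 9.94 and rose by 2.01 (limma adjusted p = 0.0382). Bcl6, the repressor that defines germinal center B cells, was not called and read 13.34, 13.49 and 13.55 against 13.21, 12.53 and 12.26. Fli1 and Etv6, both ETS factors, changed by -1.66 and 1.44 (limma adjusted p = 0.0266 and 0.00778) and were chosen after their values were seen.

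Antigen receptor signalling genes held 3 falls. Of 35 kept B cell receptor signalling genes 3 fell, with a list median of -0.21, where 2.96% of all genes fell and 1.66% rose. No gene of this list was called higher by limma, and none was higher at an unadjusted p under 0.05. With all 12 arrays none was higher and 9 were lower, against 9.9% and 11.4% of all genes. In either direction 2881 of 11174 genes passed the unadjusted p. Of 13 kept inhibitory and Fc receptor genes 1 rose and 1 fell: Havcr1, one of the largest rises, and Cd72. Cd72, an inhibitory coreceptor, fell by 0.96 from 12.33, 12.24 and 12.47 to 11.43, 11.56 and 11.17 (limma adjusted p = 0.024). Sh3bp2, an adaptor of Syk and phospholipase C signalling, fell by 1.59 from 7.94, 7.65 and 7.31 to 5.48, 6.46 and 6.19 (limma adjusted p = 0.0362). Inpp5f, a phosphoinositide phosphatase, rose by 1.81 from 8.19, 8.26 and 8.24 to 10.56, 9.67 and 9.9 (limma adjusted p = 0.0162). Rgs2, which shortens G protein signals, fell by 1.6, and Grk6, a kinase that desensitises G protein-coupled receptors, rose by 1.15 (limma adjusted p = 0.0334 and 0.0373). Rgs2 lies on chromosome 1. Itga4, an integrin chain, rose by 0.87 (limma adjusted p = 0.026), and Btla, an inhibitory receptor, read 11.73, 11.4 and 11.28 against 10.88, 9.27 and 8.51 without being called.

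Of 16 kept BCL2 family genes 2 fell and 1 rose, with a median of -0.12, where 2.96% of all genes fell and 1.66% rose. Bmf, a BH3-only protein that triggers apoptosis, read 10.89, 10.91 and 10.63 with T24P and 7.63, 8.93 and 7.35 without it. It fell by 2.84 (7.15-fold; SE 0.4, limma adjusted p = 0.0206), and its 3 probe sets ranged from -2.84 to -0.49. Bid, another BH3-only protein, rose by 1.23 from 9.94, 10.13 and 10.12 to 11.44, 11.17 and 11.26 (SE 0.13, limma adjusted p = 0.0086). Its 3 probe sets ranged from 0.5 to 1.23. The BH3-only genes best known as FOXO targets were not called, although their groups did not overlap. Bcl2l11, which encodes Bim, read 11.46, 11.61 and 11.45 against 10.44, 9.69 and 10.88 (limma adjusted p = 0.0735). Bbc3, which encodes Puma, read 8.55, 8.45 and 8.37 against 7.8, 8.08 and 7.22 (limma adjusted p = 0.105). Mcl1, a survival protein, read 14.74, 14.75 and 14.65 against 14.35, 13.63 and 12.72, and its 3 wt-/mt- arrays were widely spread. Bcl2l1, which encodes the survival protein Bcl-xL, read 8.3, 8.14 and 8.06 against 8.38, 8.5 and 8.38.

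Cell cycle regulators gave a single call. Of 29 kept CDK inhibitors, cyclins and pocket proteins 1 fell, Ccng2 above, where 2.96% of all genes fell. No gene of this list was called higher by limma, and 7 were higher at an unadjusted p under 0.05, which 2881 of 11174 genes passed in either direction. With all 12 arrays 6 were higher, against 9.9% of all genes. Cdkn1b, which encodes the CDK inhibitor p27 and is a textbook FOXO target, read 8.98, 8.68 and 8.61 against 9.13, 11.41 and 10 and was not called (limma adjusted p = 0.162). Each wt-/mt- array was above the wt-/mt+ arrays. Ccnd2, a D-type cyclin, read 6.39, 5.82 and 5.73 with T24P and 6.01, 12.23 and 6.89 without it, so a single array, wt-/mt- replicate 2, carried the high level. Ccnd1 was also highest there, at 9.07 against 7.12 and 7.39. Cdkn1a, which encodes p21, read 10.76, 10.49 and 10.77 against 10.08, 10.02 and 10.9.

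The MYC and ribosome biogenesis, G2/M and S phase lists had mostly small positive changes, few of which passed the test. Other lists linked to growth did not: of 23 kept cytosolic ribosomal protein genes 20 changes were negative and 3 positive, with a median of -0.07. None of these 23 was called, where 2.96% of all genes fell. Of 12 kept polyamine genes 2 rose, 5 changes were positive and 7 negative, and the median was -0.11. Of 52 kept MYC and ribosome biogenesis genes 2 rose, 45 changes were positive and the median was 0.35; none was called lower by limma, none was lower at an unadjusted p under 0.05, and with all 12 arrays 16 were higher and none was lower. The arrays did not overlap in the upward direction for 24 of the 52, against 17.8% of all genes. Over all genes 1.66% rose and 5668 of 11174 changes were positive. With all 12 arrays 9.9% of all genes were higher and 11.4% lower, and 2881 passed the unadjusted p in either direction. Mybbp1a, a nucleolar MYB-binding protein, read 11.42, 11.55 and 11.55 against 12.33, 12.55 and 12.4 and rose by 0.91 (limma adjusted p = 0.0162). Tfap4, a MYC-induced transcription factor, rose by 0.84 from 6.74, 6.84 and 6.78 to 7.48, 7.59 and 7.82 (limma adjusted p = 0.0257). The median was 0.29 over 35 kept G2/M genes and 0.23 over 37 kept S phase genes, with 1 rise in each. These were Ube2c, an E2 enzyme of the anaphase-promoting complex (0.67, limma adjusted p = 0.0391; not called with all 12 arrays), and Ung, the uracil glycosylase that acts in antibody diversification (0.62, limma adjusted p = 0.0431; lost with median-centred arrays). H2ax, the histone variant that marks DNA breaks, rose by 1.38 from 10.51, 10.34 and 10.22 to 12.05, 11.15 and 12.01 (limma adjusted p = 0.0391). Of Myc partners, Mxd4 read 11.19, 10.9 and 11.11 against 9.02, 9.61 and 10.66 and Mxi1 read 11.2, 11.35 and 11.29 against 10.66, 10.82 and 10.98. Both encode MAX partners that oppose MYC, and neither was called.

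Metabolic lists held few calls, where 2.96% of all genes fell and 1.66% rose. Hk1, which encodes hexokinase 1 at the entry of glycolysis, read 8.15, 7.66 and 7.56 against 9.68, 9.59 and 9.65 and rose by 1.85 (3.6-fold; SE 0.18, limma adjusted p = 0.00742), the sole call among 22 kept glycolysis genes. The wt-/mt- arrays were nearly equal for this gene. Of 35 kept oxidative phosphorylation genes none was called by limma. At an unadjusted p under 0.05, 2 were higher and 2 lower, and 2881 of 11174 genes passed in either direction. With all 12 arrays 2 were higher and 2 lower, against 9.9% and 11.4% of all genes. The median of 26 kept cholesterol synthesis genes was -0.37, with 1 fall, Insig2, a retention protein of the SREBP pathway (-0.75, limma adjusted p = 0.04), which was lost with arrays centred per chromosome and under quantile normalization. Of 40 kept lysosome and autophagy genes 3 fell and 1 rose. The falls were Ulk1 and Bnip3 as above and Atp6v1h, a subunit of the lysosomal proton pump (-0.94, SE 0.12, limma adjusted p = 0.0162). Atp6v1h lies on chromosome 1, and its 2 brighter probe sets gave -0.94 and -0.6. The rise was Tfe3, a regulator of lysosomal genes (0.8, limma adjusted p = 0.0361).

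**Figure D4:**
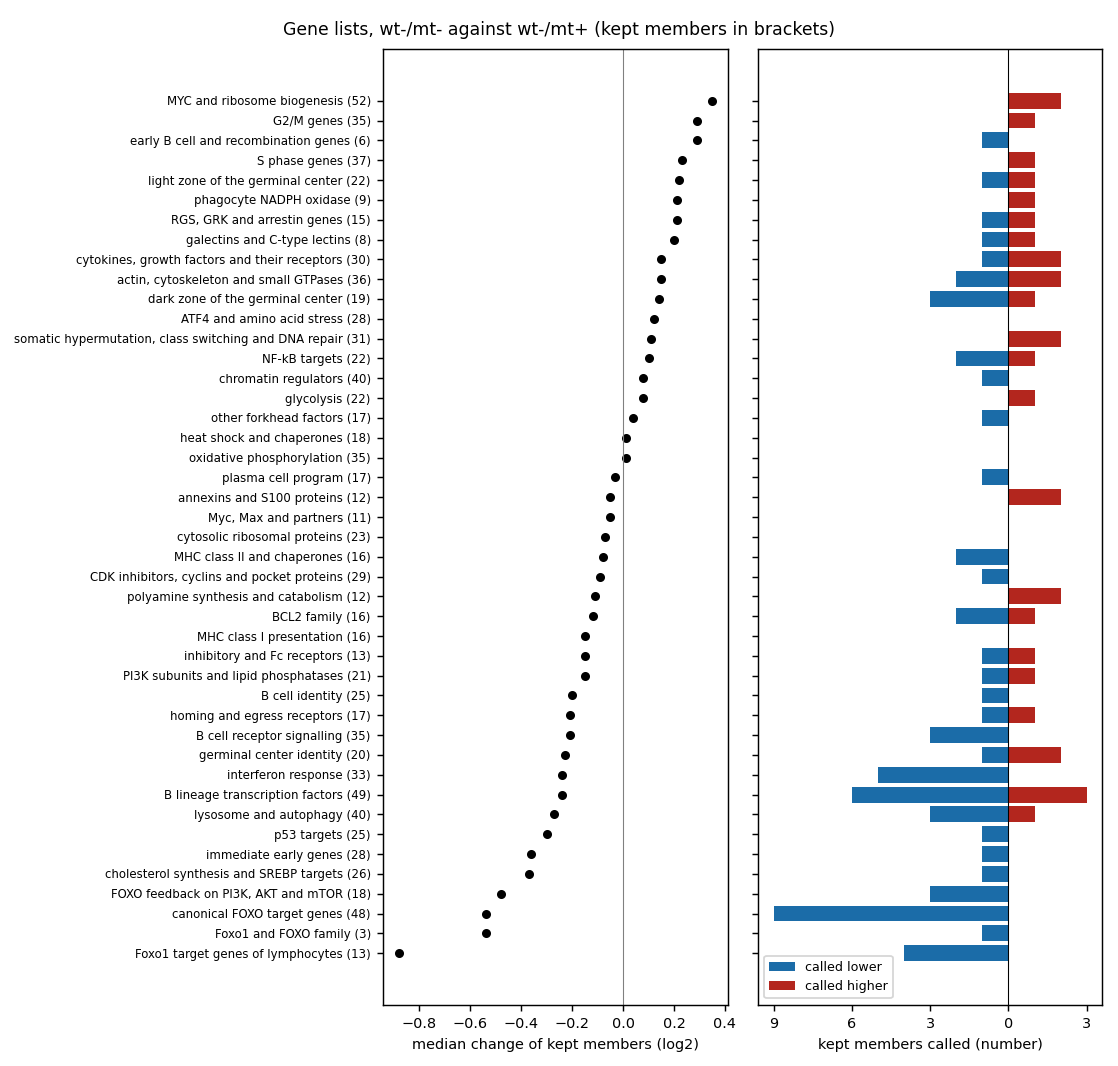
Left, the median log2 change of the kept members of each of 44 gene lists (wt-/mt- minus wt-/mt+), ordered by median, with the number kept in brackets. Right, the number of kept members called lower (blue, to the left) or higher (red, to the right): the 3 FOXO target lists lie among the lowest medians with 9, 4 and 3 falls, and MYC and ribosome biogenesis has the highest median, 0.35. The 3 FOXO target lists share members.

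Interferon and antigen presentation genes included several falls. Of 33 kept interferon response genes 5 fell, with a median of -0.24, where 2.96% of all genes fell. No gene of this list was called higher by limma, and 2 were higher at an unadjusted p under 0.05. With all 12 arrays 13 were lower and 2 higher, against 11.4% and 9.9% of all genes. In either direction 2881 of 11174 genes passed the unadjusted p. Without wt-/mt+ replicate 1, 2 or 3 no fall was called in this list. Mndal, an interferon-inducible nuclear protein, fell by 3.64 from 10.54, 9.6 and 9.64 to 6.75, 7.05 and 5.05 (12.5-fold; limma adjusted p = 0.0244) and lies on chromosome 1. Isg20, an antiviral exonuclease, fell by 1.71 from 9.59, 10.08 and 9.7 to 8.07, 8.61 and 7.54 (limma adjusted p = 0.0298). The others were Trim30a (-0.96), the regulator Irf2 (-0.84) and the double-stranded RNA sensor Eif2ak2 (-0.59), the last lost when probe sets were averaged. Of 16 kept MHC class II genes and chaperones 2 fell. H2-Ob, a chain of the H2-O modulator of peptide loading, read 11.23, 11.2 and 11.17 against 8.83, 8.69 and 7.4 and fell by 2.89 (7.44-fold; SE 0.37, limma adjusted p = 0.0162). Marchf1, a ubiquitin ligase that removes MHC class II from the surface and one of the genes with the forkhead letters shown above, fell by 2.35 from 7.35, 7.6 and 7.3 to 5.54, 4.85 and 4.81 (limma adjusted p = 0.00742). Traf1, a TNF receptor adaptor, fell by 1.52 from 10.81, 10.86 and 10.62 to 9.93, 9.1 and 8.7 (limma adjusted p = 0.0459, lost under quantile normalization).

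Among the 15 largest falls were further genes outside these groups. Dnaic2, an axonemal dynein chain, read 11.59, 12.01 and 11.09 against 7.85, 4.96 and 4.04, the largest fall (5.95, SE 0.93, limma adjusted p = 0.0261), with replicate 1 the least reduced. Zfyve28, an endosomal regulator of growth factor receptors, read 10.9, 10.98 and 10.84 against 5.29, 4.65 and 7.35 and fell by 5.14. Csf1, the macrophage growth factor, fell by 4.33 from 11.98, 11.37 and 11.46 to 7.03, 7.81 and 6.99 (SE 0.28, limma adjusted p = 0.00524), but its probe sets ranged from -4.33 to -0.08. The other changes of this group went from -4.39 for Wfdc21, a secreted whey-acidic domain protein, to -3.24 for Crisp3, and included Lct, which encodes lactase (-4.31), Ppp3cc, a catalytic chain of calcineurin (-3.49), and B3gnt5, a glycosyltransferase of lacto-series glycolipids (-3.5). Lct lies on chromosome 1. Of 628 kept genes on chromosome 1, 47 were called lower and 4 higher, and of 401 on chromosome 12, 19 were called, each of them lower. Over all genes 2.96% were called lower and 1.66% higher. Chromosomes 1 and 12 are those with the low medians of wt-/mt- replicate 1, -0.39 and -0.76.

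The largest rise was that of Anxa10. This annexin gene read 7.38, 7.17 and 6.29 with T24P and 14.17, 12.12 and 11.18 without it, all 3 far above the wt-/mt+ arrays and spread over nearly 3 log2 units. It rose by 5.54 (46.6-fold; SE 0.75, limma adjusted p = 0.0181). Havcr1, which encodes the phosphatidylserine receptor TIM-1 of regulatory B cells, read 6.35, 6.16 and 5.76 against 10.33, 10.25 and 11.1 and rose by 4.47 (22.1-fold; SE 0.27, limma adjusted p = 0.00524). Its relative Timd2, which encodes TIM-2, rose by 2.24 from 6.38, 6.37 and 5.85 to 8.39, 8.11 and 8.83 (limma adjusted p = 0.00869). Klhl6, a ubiquitin ligase adaptor of germinal center B cells, rose by 3.78 from 8.72, 7.43 and 8.61 to 12.63, 10.88 and 12.58 (limma adjusted p = 0.0227). Clec2i, a C-type lectin, crossed the array median in every array, from 5.12, 4.86 and 4.87 to 9.57, 8.5 and 8.32 (limma adjusted p = 0.00742).

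Some of the rises are genes of myeloid cells. Cybb, the catalytic chain of the phagocyte NADPH oxidase, rose by 3.44 from 5.55, 6.07 and 5.57 to 8.61, 8.99 and 9.91 (limma adjusted p = 0.00802). Its 2 brighter probe sets gave 1.68 and 3.44. Slc11a1, a metal transporter of phagocyte vesicles, rose by 2.87 from 9.58, 10.65 and 9.2 to 11.93, 12.65 and 13.44 (limma adjusted p = 0.0327). Pla2g7, a secreted phospholipase of macrophages, read 4.96, 5.24 and 5.23 against 6.69, 9.38 and 8.74, and its call (limma adjusted p = 0.0496) was lost with median-centred arrays, under quantile normalization and under either other filter. Of 19 matched macrophage and monocyte markers 13 lay below the array median on all 6 arrays, and their mean level was 5.44 to 5.51 in wt-/mt+ and 5.56 to 5.68 in wt-/mt-. Among these markers Itgam read 4.3 and 4.26, C1qa 5.05 and 5.14 and Cd163 3.86 and 3.97 on average, while Cd68 read 5.73 and 8.04. T cell markers averaged 6.03 to 6.09 and 6.13 to 6.17.

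Of 36 kept actin, cytoskeleton and small GTPase genes 2 rose and 2 fell, with a median of 0.15. Over all genes 1.66% rose and 2.96% fell. Rassf4, a Ras-association domain protein outside that list, rose by 2.63 from 8.53, 8.42 and 8.18 to 11.14, 10.72 and 11.17 (SE 0.17, limma adjusted p = 0.00524). Pfn1, the actin monomer binder profilin, rose by 1.36 from 11.76, 11.79 and 11.51 to 13.09, 13.13 and 12.93 (limma adjusted p = 0.00742). Dock10, an exchange factor for Cdc42 and Rac, fell by 2.05 from 7.26, 7.83 and 7.89 to 6.45, 5.48 and 4.91 (limma adjusted p = 0.0425). Arpc5, a subunit of the actin-nucleating Arp2/3 complex, fell by 0.63 from 13.22, 13.38 and 13.34 to 12.69, 12.56 and 12.81 (limma adjusted p = 0.0424). Both lie on chromosome 1, and both calls were lost with arrays centred per chromosome. Mtm1, a lipid phosphatase, rose by 2.35, with probe sets from -0.22 to 2.35.

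The same loss of T24P was made with wild-type Foxo1 present, so the difference between both changes could be tested directly on all 12 arrays. That difference, (wt-/mt- minus wt-/mt+) minus (wt+/mt- minus wt+/mt+), was called for 364 of 11174 genes (3.26%), with 2081 at an unadjusted p under 0.05. The actin 3' minus 5' signal, a sign of RNA quality, was 2.17, 1.71 and 1.07 in wt+/mt- replicate 1, 2 and 3 and 1.06 to 1.29 on the other 9 arrays, and its part in this difference was not tested. Among the 517 genes called without the wild-type form it was called for 265 (51.3% of the 517 and 72.8% of the 364), 202 lower and 63 higher. The 331 genes that fell had a median change of -1.19 without wild-type Foxo1 and -0.16 with it, and the 186 that rose had 0.91 and 0.23. In 309 of the 331 falls the wt-/mt- arrays lay below all 9 others, and in 150 of the 186 rises they lay above. The 517 genes were chosen on the change that is also the first term of the difference, so the shares, medians and counts over them are a description and support nothing. The count of 364 was 128, 144 and 122 without wt+/mt+ replicate 1, 2 or 3, 137, 140 and 176 without wt-/mt+ replicate 1, 2 or 3, 194, 138 and 329 without wt+/mt- replicate 1, 2 or 3, and 933, 999 and 770 without wt-/mt- replicate 1, 2 or 3.

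**Figure D5:**
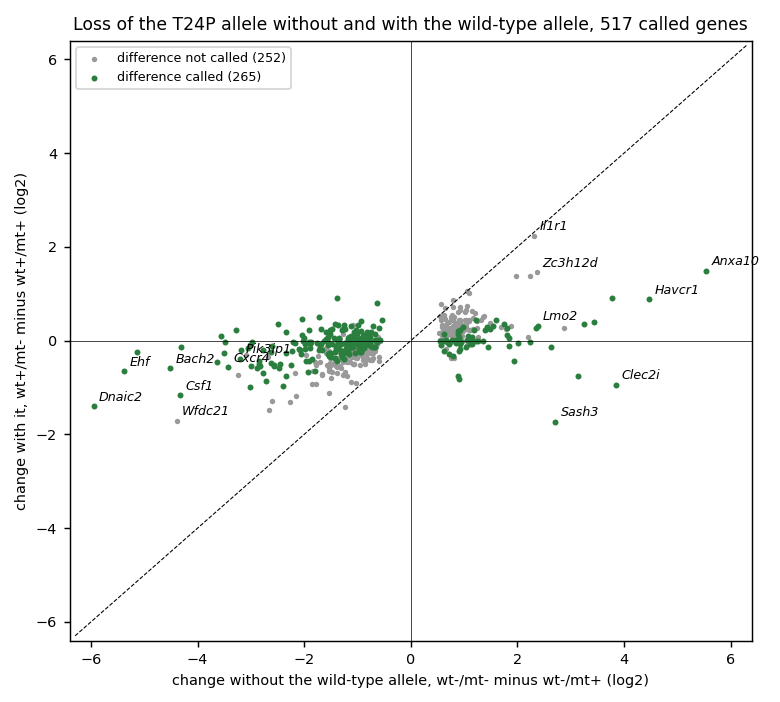
Log2 change on loss of T24P with wild-type Foxo1 present (vertical axis, wt+/mt- minus wt+/mt+) against that without it (horizontal axis, wt-/mt- minus wt-/mt+) for the 517 called genes. Green marks the 265 genes whose changes differed by limma and grey the other 252; most points lie near 0 on the vertical axis, and Il1r1 lies on the dashed line of equal change.

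For several FOXO targets the test found different changes without and with wild-type Foxo1. The difference was called for 6 of 48 kept canonical targets, 3 of 18 feedback genes and 3 of 13 lymphocyte targets. These lists share members, and over all genes the difference was called for 3.26%. The change of Pik3ip1 was -3.2 without and -0.39 with it, a difference of -2.81 (SE 0.31, limma adjusted p = 0.00168). Trp53inp1 differed by -2.28, Bmf by -2.41 and Trib2 by -1.29 (limma adjusted p = 0.0051, 0.0178 and 0.0121). For Foxo1 mRNA the changes were -1.47 and 0.24, a difference of -1.71 (limma adjusted p = 0.0221). For Irs2, not called above, the changes were -1.28 and 0.37, and the difference of -1.66 was called (limma adjusted p = 0.0187). For Foxp1, Gadd45b, Ulk1, Trib1 and Ccng2 the difference was not called, at -0.73, -0.58, -0.56, -0.85 and -0.68. The changes were -4.52 and -0.59 for Bach2, -5.38 and -0.65 for Ehf and -3.43 and -0.57 for Cxcr4, with called differences of -3.93, -4.73 and -2.86. Trib2, Foxo1 and Cxcr4 lie on chromosomes 12, 3 and 1, each with a low median in a wt-/mt- array. The difference was not fitted with arrays centred per chromosome. Except for Irs2, the genes named here were called on the change that is the first term of the difference.

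Il1r1, the interleukin 1 receptor, was higher without T24P on every array of both backgrounds. It read 6.98, 7.12 and 6.89 in wt-/mt+ and 9.69, 8.69 and 9.58 in wt-/mt-, a rise of 2.32 (SE 0.27, limma adjusted p = 0.0141). With wild-type Foxo1 present it read 7.23, 7.18 and 6.86 in wt+/mt+ and 10.29, 7.96 and 9.73 in wt+/mt-, a change of 2.24, and the difference of 0.09 had an SE of 0.67. Zc3h12d, a regulator of mRNA decay, had changes of 2.37 and 1.46 (difference 0.91, SE 0.42, limma adjusted p = 0.279), and Smox, the spermine oxidase gene, of 0.56 and 0.79 (difference -0.22, SE 0.17). The bioD control also differed between the mt+ and mt- genotypes, and its part in these values was not tested. In the opposite direction, Sash3, a lymphocyte adaptor, rose by 2.71 without wild-type Foxo1, from 6.7, 7.82 and 6.55 to 10.62, 9.23 and 9.37. With it, Sash3 read 9.47, 9.7 and 9.42 in wt+/mt+ and 9.5, 7.16 and 6.74 in wt+/mt-, so that replicate 1 of wt+/mt- stood apart from the others, and the difference was 4.45 (limma adjusted p = 0.0248). For Clec2i the changes were 3.85 and -0.94, a difference of 4.79 (SE 0.39, limma adjusted p = 0.00052).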

How the data were processed

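RNA was measured on 12 Affymetrix mouse arrays after reverse transcription with a 3' IVT kit and biotin labelling, per the labels' protocols. The deposited values are log2 levels per probe set from RMA by the authors, per the submitters' processing notes, with the version not given in the sources used here. The base was taken from RMA's usual output and the range, 3.09 to 15.57. RMA aligns the arrays, so a shift shared by most genes is largely removed.

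Of 45101 probe sets, 34958 had 1 gene in the platform annotation, 932 had several and 9211 had none listed; they covered 18194 genes. limma 3.58.1 in R 4.3.3 (lmFit, eBayes) was fitted to the 6 arrays alone because wt-/mt- arrays vary more; the difference of changes used all 12. On simulated data, 50 genes were changed at each log2 size of 0.5, 1, 2 and 4. The fit to the 6 arrays recovered 3, 28, 43 and 48 of these and called 25 unchanged genes. The fit of the difference recovered 6, 27, 47 and 50 and called 39 unchanged genes. In both fits, unchanged genes made up a larger share of these simulated calls than the adjusted p threshold aims for. The members, lists and tests were chosen with earlier results of these data known. Named were Foxo1, the 15 largest rises and falls without overlap, up to 5 called genes per list, uncalled members of the FOXO, BCL2, cell cycle and Myc partner lists, cell type markers, and genes shown for their promoter. Of 1432 list entries 1316 matched. An exact permutation test of 3 against 3 arrays cannot go below 0.1, so none was used. The number of arrays limits the precision. Alternatives covered shared spread, genotype weights, prior, centring, quantile normalization, filters, probe set averaging and each array left out.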

Additional observations from a re-analysis of the deposited data

Results flagged for a closer look

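The change on loss of the T24P form differed between cells without and with wild-type Foxo1 for 364 genes, by the test of the difference on all 12 arrays in limma. The values are differences of log2 changes, without minus with wild-type Foxo1, for the named genes among them. The test of the difference was not repeated with arrays centred per chromosome. The lowest were Zfyve28 (-4.89), Ehf (-4.73), Dnaic2 (-4.55), Lct (-4.18), Bach2 (-3.93), Lnx1 (-3.64), Gm8369 (-3.51), Ppp3cc (-3.46) and B3gnt5 (-3.23). They were followed by Mndal (-3.18), Csf1 (-3.16), Cxcr4 (-2.86), Pik3ip1 (-2.81), Akap12 (-2.53), Bmf (-2.41), H2-Ob (-2.32), Trp53inp1 (-2.28) and Dock10 (-2.16). Smaller negative differences were those of Gm7967 (-2.13), Traf1 (-1.75), Foxo1 (-1.71), Kdm5b (-1.7), Irs2 (-1.66), Rgs2 (-1.64), Marchf1 (-1.59), Atp6v1h (-1.36) and Trib2 (-1.29). The negative differences nearest to 0 were those of Hbp1 (-1.23), Trp53inp2 (-1.16), Cd72 (-1), Pim1 (-0.96), Ube2h (-0.94), Ccni (-0.83), Bnip3 (-0.77), Trim30a (-0.72), Nek7 (-0.67) and Arpc5 (-0.6). Positive differences were led by Clec2i (4.79), Sash3 (4.45), Anxa10 (4.05), Pla2g7 (3.89), Havcr1 (3.58), Cybb (3.05), Tnni2 (2.9), Klhl6 (2.86) and Rassf4 (2.77). Smaller ones were those of Timd2 (2.26), Mtm1 (2.08), Lmo2 (2.07), Mef2b (2.05), Hk1 (1.96), Inpp5f (1.69), Bid (1.23), Arhgdib (1.15) and Grk6 (1.08). The remaining positive differences were those of Mybbp1a (0.88) and Ung (0.84).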

How the results depend on the processing

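No paired analysis was possible because the labels' array numbers run on from 1 to 12 with none shared between genotypes. With all 12 arrays sharing 1 estimate of spread, 2377 genes were called, 1106 higher and 1271 lower, in place of 517, 186 and 331. That estimate is too small for this contrast. Leaving out 1 of the 6 arrays gave 5 to 976 calls, 1 to 416 higher and 4 to 560 lower; the cause was not tested. The same with 1 weight per genotype, an alternative chosen after seeing the data, gave 192, 205 and 278 calls without wt-/mt+ replicate 1, 2 or 3 (52, 49 and 60 higher; 140, 156 and 218 lower) and 258, 171 and 317 without wt-/mt- replicate 1, 2 or 3 (83, 38 and 92 higher; 175, 133 and 225 lower). Leaving out 1 of 12 arrays gave 122 to 999 genes for the difference of changes. Genotype weights, a trended and robust prior, median centring, quantile normalization, centring per chromosome, other filters and averaged probe sets gave 494 to 589 calls. Of 90 called named genes, 71 kept their call with genotype weights and 80 with arrays centred per chromosome. No alternative reversed the direction of a called named gene. Leaving out an array could not do so, because the groups did not overlap for any of them. Dim probe sets near the array median limit what could be seen, and Myc's own mouse probe set was too dim to keep.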
